A study of Mus musculus with 16 samples.

Results

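The genes described here mark neutrophils and the granulocyte precursors from which they arise, and they were followed in the footpads of mice selected for high (AIRmax) or low (AIRmin) acute inflammation. The list holds 32 genes chosen by name, of which 30 had a probe set naming that gene alone, among 19938 genes measured in this way. The signals of Fpr1 and Fpr2, which encode formyl peptide receptors, were not analysed here. Total RNA of 16 footpads was hybridized to Mouse Gene 1.0 ST arrays, with 4 mice (2 males and 2 females) in each of 4 groups. AIRmax pristane and AIRmin pristane mice were injected 2 times into the peritoneum with 0.5 ml of pristane, a mineral oil that can bring on arthritis in mice, at an interval of 60 days, and their footpads were taken at day 160. AIRmax control and AIRmin control footpads were taken at day 0. The labels count both days from the second injection and do not state whether control mice had been injected, and since each treatment belongs to its own day, treatment and time cannot be told apart. Both lines are outbred stocks, with mice labelled as 2 to 4 months old, and both descend from intercrosses of the strains BALB/cJ, C57BL/6J, CBA/J, SJL/J, SWR/J, P/J, DBA/2J and A/J. The same age label stands for all groups. For pristane mice, taken 160 days after the second injection, it cannot be the age at sampling. Age at sampling is thus not given, and it cannot be told apart from treatment. Arrays carry the numbers 109 to 112 in AIRmax pristane, 105 to 108 in AIRmax control, 117 to 120 in AIRmin pristane and 113 to 116 in AIRmin control mice, and the first 2 of each group came from males. Values of single arrays are given in the order of these numbers. The values are log2 signals, with array medians between 5.44 and 5.53, so that a difference of 1 is a doubling of signal. The number of arrays limits the precision.

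Neutrophils are made in the bone marrow in a fixed order, and each stage fills its own set of granules. Promyelocytes make the proteins of the primary granules, the myelocytes that follow make those of the specific granules, later precursors make those of the gelatinase granules, and only the ripe cell carries the receptors with which it finds chemoattractants. Transcripts of primary granule proteins are largely switched off before the cell leaves the marrow, whereas receptors such as Cxcr2 are transcribed in the circulating cell. A whole mouse footpad holds skin, muscle, fat and small bones, and bones hold marrow. The labelled tissue was borne out by high signal of the keratins Krt14 and Krt10, the muscle actin Acta1 and the bone sialoprotein gene Ibsp. Krt10 was at 12.41 ± 0.638, 12.60 ± 0.323, 12.90 ± 0.175 and 12.66 ± 0.094 (SD, n = 4 each) in AIRmax pristane, AIRmax control, AIRmin pristane and AIRmin control footpads. Ibsp was at 10.04 ± 0.36, 9.78 ± 0.104, 8.67 ± 0.82 and 9.94 ± 0.319 in the same order. In RNA of a whole tissue, fewer cells of a type and less RNA per cell cannot be told apart.

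Mice of one group differed in these 30 genes by about as much as the groups did. Within a group nearly every gene of the list was highest on the same 1 or 2 arrays. In AIRmin control mice the arrays ran as a gradient. Its top lay below all AIRmax control arrays for 19 of 30 genes, where 5.39% of all genes were higher in AIRmax control without overlap. The genes moved together on the same arrays, so that the 19 are not separate observations. Array 108 was the highest of the AIRmax control arrays for 30 of 30 genes, and array 116 the highest of the AIRmin control arrays for 30 of 30. Among the AIRmin pristane arrays, 118 was the highest for 29 of 30 genes, and 120 was so for Ltb4r1. Among the AIRmax pristane arrays, 109 was the highest for 15 genes and 112 for the other 15. At the low end stood array 111 for 26 genes, array 106 for 18, array 119 for 28 and array 115 for 28, each within its own group. Of the highest arrays, 109 and 118 came from males and 108, 112 and 116 from females.

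The spread within groups, as the SD pooled over the 4 groups, had a median of 1.17 over the 30 genes, against 0.181 over all 19938 genes. Of the 30 genes, 12 were among the 100 genes with the largest such spread, 25 among the first 200 and 29 among the first 1000. Ms4a3, a membrane protein of committed granulocyte precursors, had an SD of 1.47, and Ltb4r1, a receptor for leukotriene B4, had the smallest, 0.513. The heat map of all 30 genes shows the same arrays standing out from top to bottom.

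**Figure D1:**
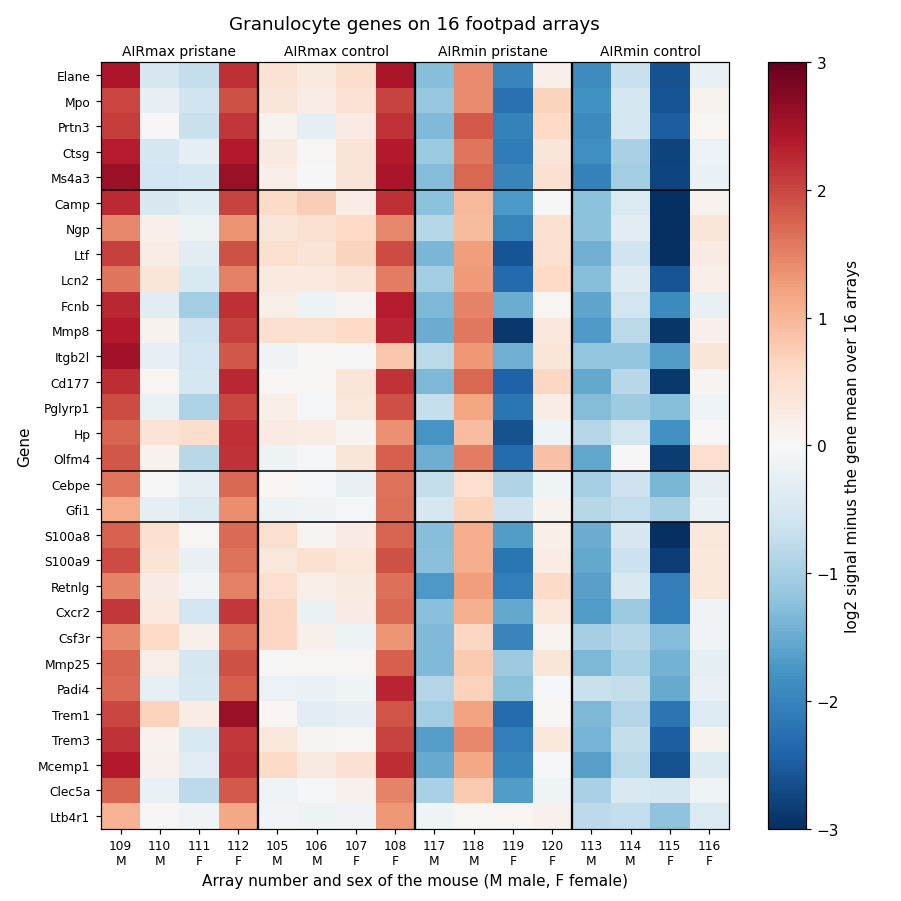
Each cell gives the log2 signal of one gene (rows, in the order primary granule, specific and gelatinase granule and precursor, transcription factor, mature neutrophil) on one array (columns, by group), minus the mean of that gene over 16 arrays. Columns 109, 112, 108 and 118 are red and column 115 is blue for nearly all genes, within groups of the same line and treatment.

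Primary granule genes were measured in 5 members: the serine protease genes Elane (neutrophil elastase), Prtn3 (proteinase 3) and Ctsg (cathepsin G), the myeloperoxidase gene Mpo, and Ms4a3. Elane was at 11.68, 8.76, 8.55 and 11.44 in the 4 AIRmax pristane footpads, at 9.68, 9.54, 9.78 and 11.69 in AIRmax control, at 7.96, 10.67, 7.28 and 9.40 in AIRmin pristane and at 7.37, 8.59, 6.63 and 9.03 in AIRmin control footpads. AIRmax pristane footpads thus held a high pair near control array 108 and a low pair below all 4 AIRmax control arrays, while every AIRmax control array lay above every AIRmin control array. Mpo, which makes hypochlorous acid, was at 11.69, 9.43, 9.07 and 11.58 in AIRmax pristane, 10.05, 9.90, 10.12 and 11.70 in AIRmax control, 8.53, 11.09, 7.44 and 10.36 in AIRmin pristane and 7.87, 9.17, 7.09 and 9.79 in AIRmin control footpads. Ctsg was at 10.86, 8.001, 8.25 and 10.88 in AIRmax pristane, 8.78, 8.55, 8.90 and 10.89 in AIRmax control, 7.39, 10.11, 6.41 and 8.88 in AIRmin pristane and 6.67, 7.53, 5.73 and 8.34 in AIRmin control footpads. Both genes shared with Elane the lowest array, 115, and the 3 highest, 108, 109 and 112. Prtn3 averaged 10.29 ± 1.43, 9.96 ± 1.10, 9.17 ± 1.78 and 8.19 ± 1.18, and Ms4a3 8.73 ± 1.81, 8.45 ± 1.14, 7.44 ± 1.68 and 6.20 ± 1.11 in AIRmax pristane, AIRmax control, AIRmin pristane and AIRmin control footpads (SD, n = 4 each).

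Specific and gelatinase granule genes and precursor markers made up 11 members. Camp encodes the antimicrobial peptide cathelicidin, Ltf lactoferrin and Lcn2 lipocalin 2, which both withhold iron from bacteria, and Mmp8 the neutrophil collagenase. Camp was at 12.58, 9.87, 9.99 and 12.37 in AIRmax pristane, 10.92, 11.09, 10.58 and 12.53 in AIRmax control, 9.11, 11.32, 8.62 and 10.34 in AIRmin pristane and 9.12, 9.92, 6.74 and 10.45 in AIRmin control footpads. Mmp8 was at 10.81, 8.53, 7.80 and 10.46 in AIRmax pristane, 8.91, 8.88, 9.02 and 10.70 in AIRmax control, 6.94, 9.999, 5.53 and 8.75 in AIRmin pristane and 6.72, 7.61, 5.51 and 8.57 in AIRmin control footpads. For both genes the AIRmax control arrays lay above every AIRmin control array, and the 2 pristane groups overlapped. Ngp (neutrophilic granule protein) averaged 11.87 ± 0.813, 11.89 ± 0.49, 10.81 ± 1.34 and 10.13 ± 1.46 in AIRmax pristane, AIRmax control, AIRmin pristane and AIRmin control footpads (SD, n = 4 each), and Olfm4 (olfactomedin 4, made by a subset of neutrophils) 9.57 ± 1.43, 9.22 ± 0.903, 8.40 ± 1.84 and 7.76 ± 1.53. The remaining genes of this class, Ltf, Lcn2, Fcnb (ficolin B, a lectin), Itgb2l (an integrin beta chain), Cd177 (a surface protein that in humans binds proteinase 3) and Pglyrp1 (a peptidoglycan recognition protein), had within-group SDs from 1.09 for Itgb2l to 1.44 for Cd177.

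Hp, which encodes the haemoglobin-binding protein haptoglobin and is transcribed in granulocyte precursors, liver and fat, placed the arrays somewhat differently. Hp was at 11.54, 10.20, 10.31 and 11.99 in AIRmax pristane, 10.04, 10.02, 9.89 and 11.16 in AIRmax control, 8.04, 10.72, 7.18 and 9.66 in AIRmin pristane and 8.94, 9.25, 7.97 and 9.81 in AIRmin control footpads. AIRmax pristane arrays 110 and 111, at the low end for most of the list, were above 3 of the 4 AIRmax control arrays for Hp, and AIRmin pristane array 117 was below 3 of the 4 AIRmin control arrays and array 119 below all of them.

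Transcription factor genes of the lineage were dimmer. Cebpe (C/EBP epsilon, required for specific granules) was at 8.34, 6.74, 6.44 and 8.45 in AIRmax pristane, 6.78, 6.71, 6.50 and 8.36 in AIRmax control, 6.03, 7.24, 5.84 and 6.61 in AIRmin pristane and 5.73, 6.12, 5.37 and 6.45 in AIRmin control footpads. Gfi1, a repressor needed for neutrophil formation, averaged 6.44 ± 0.94, 6.32 ± 0.873, 5.89 ± 0.598 and 5.28 ± 0.355 in AIRmax pristane, AIRmax control, AIRmin pristane and AIRmin control footpads (SD, n = 4 each). Both stood out on arrays 108, 109, 112 and 118, as the granule genes did.

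Mature neutrophil genes were measured in 12 members. S100a8 and S100a9 encode the 2 chains of calprotectin, Retnlg a resistin-like protein, Cxcr2 the receptor for CXC chemokines such as Cxcl5, and Csf3r the receptor for the growth factor G-CSF. S100a9 was at 12.25, 10.68, 10.05 and 11.91 in AIRmax pristane, 10.63, 10.75, 10.61 and 12.19 in AIRmax control, 9.03, 11.37, 8.08 and 10.51 in AIRmin pristane and 8.75, 9.64, 7.45 and 10.61 in AIRmin control footpads. Cxcr2 was at 10.34, 8.51, 7.64 and 10.33 in AIRmax pristane, 8.84, 8.02, 8.46 and 9.95 in AIRmax control, 6.97, 9.28, 6.68 and 8.55 in AIRmin pristane and 6.54, 7.10, 6.16 and 8.11 in AIRmin control footpads. Both genes ordered the arrays of AIRmax pristane, AIRmin pristane and AIRmin control mice as Elane did, and both had array 108 as the highest of the AIRmax control arrays. Csf3r was at 8.80, 7.96, 7.51 and 9.03 in AIRmax pristane, 7.98, 7.51, 7.21 and 8.69 in AIRmax control, 6.03, 7.98, 5.38 and 7.44 in AIRmin pristane and 6.37, 6.54, 6.05 and 7.25 in AIRmin control footpads. S100a8 averaged 11.32 ± 0.872, 10.96 ± 0.755, 9.91 ± 1.29 and 9.12 ± 1.50 in AIRmax pristane, AIRmax control, AIRmin pristane and AIRmin control footpads (SD, n = 4 each). Csf3r spread less than most of the list, with a within-group SD of 0.813.

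Trem1 and Trem3 encode activating receptors of myeloid cells, Clec5a a C-type lectin of the same kind, Mcemp1 a membrane protein of mast cells and myeloid cells, Mmp25 a membrane-bound metalloproteinase and Padi4 the enzyme that citrullinates histones in neutrophils. Trem1 was at 7.99, 6.67, 6.20 and 8.54 in AIRmax pristane, 6.04, 5.66, 5.74 and 7.88 in AIRmax control, 4.93, 7.18, 3.67 and 6.03 in AIRmin pristane and 4.64, 5.10, 3.78 and 5.59 in AIRmin control footpads. Mcemp1 averaged 8.75 ± 1.38, 8.54 ± 0.901, 7.07 ± 1.43 and 6.29 ± 0.978, and Clec5a 8.74 ± 1.34, 8.45 ± 0.754, 7.58 ± 1.06 and 7.57 ± 0.351 in AIRmax pristane, AIRmax control, AIRmin pristane and AIRmin control footpads (SD, n = 4 each). Ltb4r1 was at 7.95, 6.91, 6.78 and 8.05 in AIRmax pristane, 6.81, 6.76, 6.79 and 8.19 in AIRmax control, 6.76, 6.92, 6.96 and 7.02 in AIRmin pristane and 6.12, 6.16, 5.70 and 6.46 in AIRmin control footpads. Unlike the other genes, Ltb4r1 had close values on the 4 AIRmin pristane arrays, all of them above the 4 AIRmin control arrays.

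**Figure D2:**
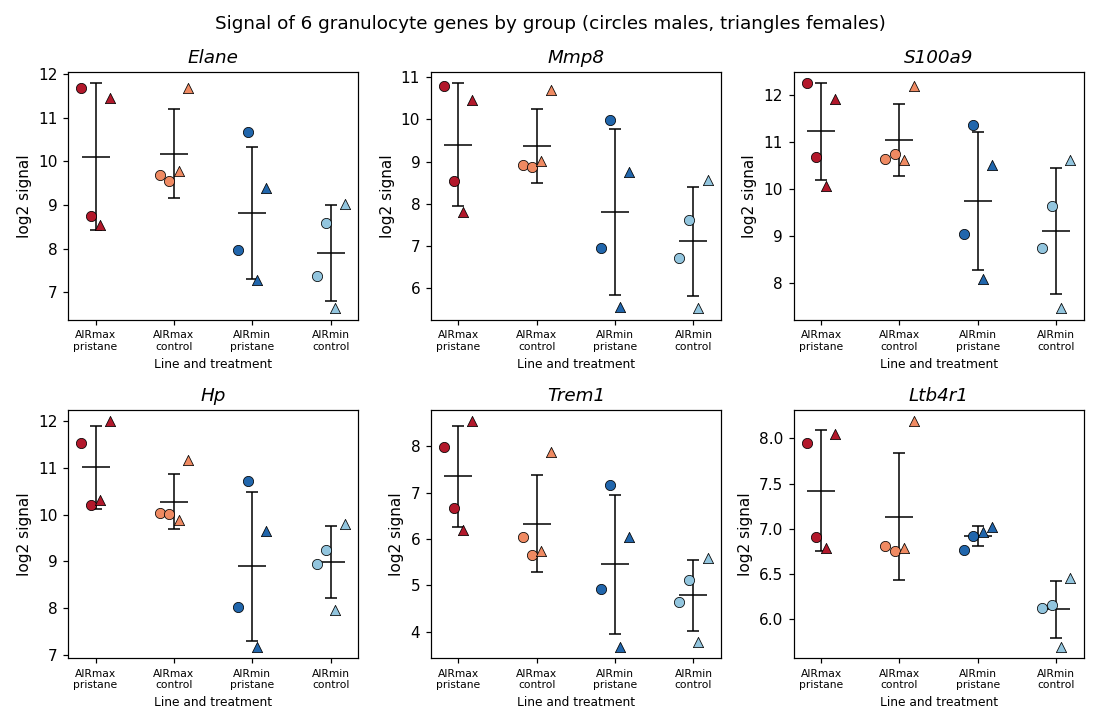
Log2 signal (vertical axis) of Elane, Mmp8, S100a9, Hp, Trem1 and Ltb4r1 in the 4 groups (horizontal axis), with 1 point per array, circles for males and triangles for females, and the mean with its SD (n = 4) as bar and whiskers. The 6 genes are all among the 19 of 30 for which AIRmax control points lie wholly above AIRmin control points. The pristane groups overlap, and among these 6 genes Ltb4r1 alone has AIRmin pristane arrays (6.76 to 7.02) wholly above AIRmin control arrays (5.70 to 6.46).

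Whether pristane changed these genes in susceptible mice was asked by comparing AIRmax pristane with AIRmax control footpads. By limma, 0 of the 30 genes had an adjusted p (Benjamini-Hochberg) below 0.05, where 0.281% of all genes did. At an unadjusted p under 0.05 the count was also 0 of 30, against 14.4% of all genes. The log2 differences ran between -0.08 for Camp and 1.02 for Trem1, with a median of 0.26 (0.03 over all genes), and 27 of 30 were above 0. Trem1 differed by 1.02 (standard error 0.62, adjusted p = 0.483) and Hp by 0.73 (standard error 0.44, adjusted p = 0.476). Elane differed by -0.07 with a standard error of 0.81, so that the data bound its change only loosely. By class, the median difference was 0.22 for primary granule genes, 0.13 for specific and gelatinase granule and precursor genes, and 0.32 for mature neutrophil genes. No gene of the list separated the 2 groups without overlap, as 9.39% of all genes did. Single arrays moved the median: it was 0.74 without AIRmax control array 108, -0.09 without AIRmax pristane array 109 and -0.11 without array 112.

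In the resistant line, AIRmin pristane against AIRmin control, limma again called 0 of 30 genes, with 0.0% called over all genes. At an unadjusted p under 0.05 there was 1 of 30, Ltb4r1, against 12.4% of all genes. Ltb4r1 was 1.75-fold higher, a log2 difference of 0.81 (standard error 0.15, adjusted p = 0.0777), and was the 1 gene of 30 without overlap between the groups, where 3.19% of all genes were higher without overlap. The other differences ran between -0.09 for Hp and 1.24 for Ms4a3, and 29 of 30 were above 0, with a median of 0.70 against 0.02 over all genes. Primary granule genes had a median of 0.98, and mature neutrophil genes one of 0.65. Here too the median turned on single arrays, being 0.22 without AIRmin pristane array 118, 0.33 without AIRmin control array 115, 1.12 without AIRmin control array 116 and 1.20 without AIRmin pristane array 119.

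Between the lines after pristane, all 30 genes had higher means in AIRmax than in AIRmin footpads, by a median of 1.28 on the log2 scale (-0.01 over all genes), but 0 of 30 passed by limma, with 1.36% of all genes called. An unadjusted p under 0.05 was reached by 3 genes, Hp, Csf3r and Trem1, against 18.8% of all genes. Hp differed by 2.11 (standard error 0.74, adjusted p = 0.172), Csf3r by 1.62 (standard error 0.57, adjusted p = 0.175) and Trem1 by 1.90 (standard error 0.75, adjusted p = 0.218). Ltb4r1 had the smallest difference, 0.51. The groups overlapped for all 30 genes, where 10.8% of all genes separated them. Without AIRmin pristane array 118 the median was 1.83, and without array 119 it was 0.76.

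Control footpads of the 2 lines differed by a larger median than the pristane footpads did, but 4 genes (Hp, Csf3r, Trem1 and Clec5a) had the larger difference between the pristane groups. Every gene of the list had a higher mean in AIRmax control than in AIRmin control footpads, from 1.85-fold for Clec5a to 4.84-fold for Mmp8, with a median log2 difference of 1.71 against -0.03 over all genes. By limma 0 of 30 genes passed, where 0.0802% of all genes did, and 29 of 30 (all but Olfm4) had an unadjusted p under 0.05, against 16.8% of all genes. The smallest adjusted p of the list was that of Mcemp1, with a difference of 2.24 (standard error 0.54, adjusted p = 0.168). Elane differed by 2.27 (standard error 0.60, adjusted p = 0.191), Mmp8 by 2.27 (standard error 0.63, adjusted p = 0.205) and Csf3r by 1.30 (standard error 0.34, adjusted p = 0.185). For 19 of 30 genes every AIRmax control array lay above every AIRmin control array, whereas 5.39% of all genes were higher without overlap. These 19 were Elane, Mpo, Ctsg and Ms4a3 of the primary granules, Camp, Ltf, Lcn2, Fcnb, Mmp8, Pglyrp1 and Hp of the later granules, both transcription factor genes, and S100a9, Mmp25, Padi4, Trem1, Mcemp1 and Ltb4r1 of the mature cells. The genes share the same 8 arrays and moved together on them, so that the 19 are not separate observations. The median was 1.28 without AIRmax control array 108 and 2.10 without AIRmin control array 116.

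**Figure D3:**
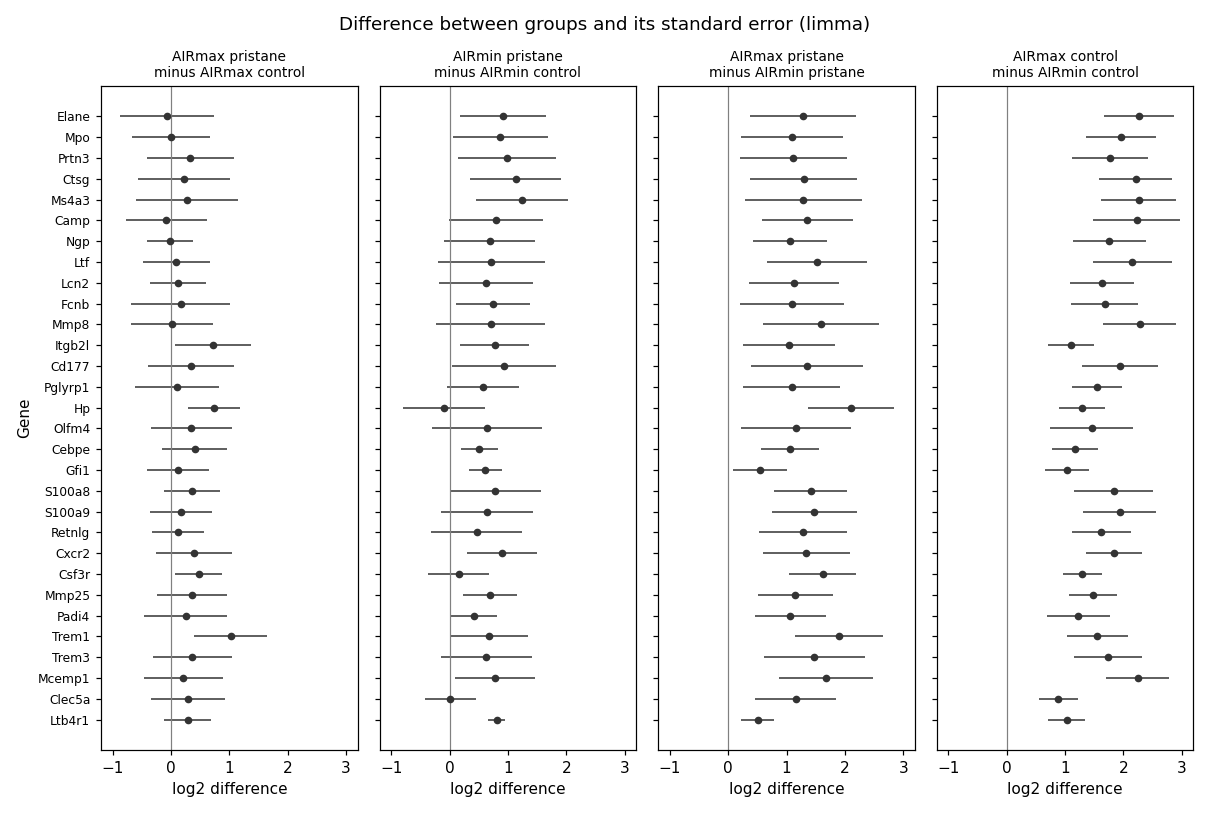
Log2 differences (horizontal axis, points) with standard errors (bars) from limma for the 30 genes (rows) in 4 comparisons. Points lie around 0 for AIRmax pristane minus AIRmax control (median 0.26) and all to the right of 0 for AIRmax control minus AIRmin control (median 1.71), and none of the 30 genes had an adjusted p under 0.05 in these 4 comparisons.

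Whether the lines differed in their response was tested as the AIRmax response minus the AIRmin response over all 16 arrays. Of the 30 genes 0 passed by limma (0.171% of all genes), and 0 had an unadjusted p under 0.05 (8.21% of all genes). The differences had a median of -0.49 (0.01 over all genes), from -0.99 for Elane (standard error 1.20) to 0.83 for Hp (standard error 0.92), and 4 of 30 were above 0. This median rested on single arrays, being 0.05 without AIRmin pristane array 118, -0.05 without AIRmin control array 115, -0.07 without AIRmax control array 108 or AIRmax pristane array 111, and -0.96 without AIRmin pristane array 119. Since the comparisons share their groups, the 5 sets of values are not independent of each other.

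Primary granule genes were then set against mature neutrophil genes across single arrays, as classes named for different stages. Whether the mature class marks ripe cells alone was not tested. For each array, a class was scored by taking every gene's log2 signal minus that gene's average of the 16 arrays and averaging within the class. The primary granule score was 2.29, -0.36, -0.55 and 2.24 on AIRmax pristane arrays, 0.27, 0.05, 0.40 and 2.29 on AIRmax control arrays, -1.23, 1.60, -2.07 and 0.45 on AIRmin pristane arrays, and -1.89, -0.75, -2.64 and -0.09 on AIRmin control arrays. The mature neutrophil score was 1.80, 0.23, -0.26 and 1.85 on AIRmax pristane arrays, 0.26, 0.03, 0.10 and 1.78 on AIRmax control arrays, -1.20, 0.94, -1.65 and 0.17 on AIRmin pristane arrays, and -1.29, -0.73, -1.95 and -0.08 on AIRmin control arrays. The 2 scores ranked the arrays almost alike. Over 16 arrays Pearson's r was 0.986 and Spearman's rho 0.947. With each group's mean removed r was 0.992 and rho 0.977, and without the 2 arrays farthest from the median (109 and 115) the same r was 0.991. Within AIRmax arrays r was 0.978 (n = 8) and within AIRmin arrays 0.993 (n = 8). These correlations are descriptions, since the 2 scores come from the same arrays and share their normalization.

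A rise of 1 in the primary granule score went with a rise of 0.713 in the mature neutrophil score within groups, so that the ratio of mature to primary signal was lower on the granulocyte-rich arrays. Slopes below 1 were not particular to the mature class, with 0.73 for Ngp, 0.54 for Cebpe and 0.49 for Gfi1, though Mmp8 had 1.04. Whether the lower ratio reflects the stage of the cells was not tested. The mature score minus the primary score was -0.49, 0.59, 0.29 and -0.39 on AIRmax pristane arrays, -0.01, -0.01, -0.30 and -0.51 on AIRmax control arrays, 0.04, -0.67, 0.42 and -0.28 on AIRmin pristane arrays, and 0.60, 0.01, 0.70 and 0.01 on AIRmin control arrays. By group this difference averaged 0.00 ± 0.52 in AIRmax pristane, -0.21 ± 0.24 in AIRmax control, -0.12 ± 0.46 in AIRmin pristane and 0.33 ± 0.37 in AIRmin control footpads (SD, n = 4 each), and the 4 ranges overlapped except that all AIRmin control values were above 0 and all AIRmax control values below it. The 3 arrays with the highest primary score, 108, 109 and 112, were alike in both scores although 108 is a control array.

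**Figure D4:**
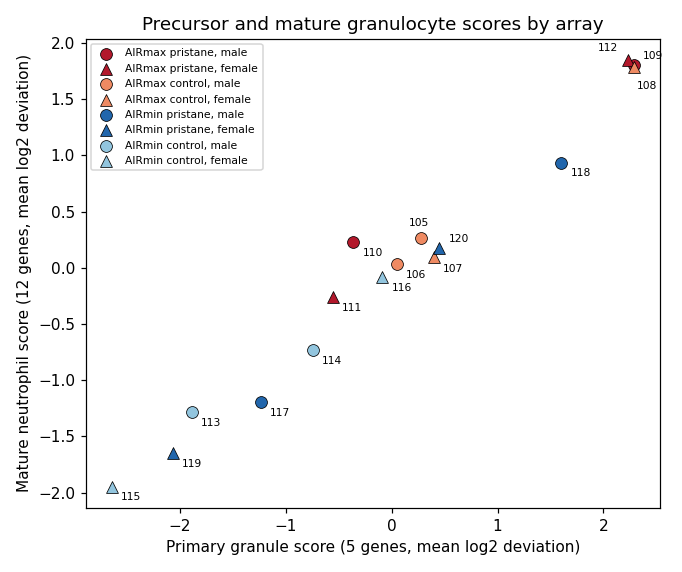
Each point is 1 array, with the primary granule score (5 genes, mean log2 deviation) on the horizontal axis and the mature neutrophil score (12 genes) on the vertical axis, coloured by group, circles for males and triangles for females. The 16 arrays lie close to 1 line (r = 0.986), from array 115 at the lower left to arrays 108, 109 and 112 at the upper right.

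Gene by gene, 24 of the 25 members outside the primary granule class had an r of at least 0.9 with the primary granule score after group means were removed, as did 2.46% of all 19933 genes outside that class, whose median r was -0.09. Mcemp1 followed it most closely (r = 0.994), then Trem3 and Cd177 (0.989 each). Ltb4r1 was the exception (r = 0.764). The slope on the score was highest for Mmp8 (1.04), Olfm4 and Cd177, was 0.54 for Cebpe and 0.49 for Gfi1, and was lowest for Ltb4r1 (0.29). Genes outside the list that followed the score as closely, chosen after their values were seen, were Bin2 (0.993), Igsf6 (0.990) and Treml2 (0.989).

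Several members are neighbours in the genome (GRCm38.p6 coordinates, from RefSeq). Prtn3 and Elane lie 3.1 kb apart on chromosome 10, S100a8 and S100a9 22.6 kb apart on chromosome 3, and Trem1 and Trem3 0.7 kb apart on chromosome 17. Camp, Ngp and Ltf lie in this order on chromosome 9, at distances of 570.4 kb and 596.3 kb. On chromosome 14, Ltb4r1 and Ctsg lie 331.4 kb apart, and Ltb4r1 followed the score least. Genes with no close neighbour on the list followed the score too, such as Mcemp1 (r = 0.994), Cd177 (0.989), Padi4 (0.932) and Clec5a (0.931). Among the close pairs r was 0.994 for Elane and 0.989 for Prtn3, each left out of its own score. It was 0.969 for Trem1, 0.989 for Trem3, 0.940 for S100a8 and 0.964 for S100a9. Whether position has a part in these values was not tested.

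The promoter windows of the listed genes were searched for the binding motifs of 3 factors of the granulocyte lineage. RefSeq windows from 250 bases before to 50 bases after the annotated start were at hand for 29 of the 32 genes (30 windows, as Gfi1 has 2), Fpr1 and Fpr2 included. On either strand, the PU.1 motif GAGGAAG was found in 14 of 30 windows (46.7%), against 13.6% of all 32851 windows. It was in 4 of 5 primary granule windows. The C/EBP motif TTGCNNAA was in 9 of 30 windows (against 10.8% of all), 5 of them among the 10 windows of specific and gelatinase granule genes, and the RUNX motif TGTGGT in 7 of 30 (23.3%, against 16.8%). Without Fpr1 and Fpr2, whose signals were not analysed, the counts were 14 of 28 windows for PU.1, 9 of 28 for C/EBP and 6 of 28 for RUNX. In the windows printed here no match of one motif overlaps a match of another. A match is a run of letters and does not show that a factor binds there. The following windows show the 4 primary granule genes with a PU.1 match, the 2 genes with a pair of C/EBP matches, and Ltb4r1, the member that followed the others least. They are written 5′ to 3′ along the gene, with every match of the 3 motifs in capitals.
Elane: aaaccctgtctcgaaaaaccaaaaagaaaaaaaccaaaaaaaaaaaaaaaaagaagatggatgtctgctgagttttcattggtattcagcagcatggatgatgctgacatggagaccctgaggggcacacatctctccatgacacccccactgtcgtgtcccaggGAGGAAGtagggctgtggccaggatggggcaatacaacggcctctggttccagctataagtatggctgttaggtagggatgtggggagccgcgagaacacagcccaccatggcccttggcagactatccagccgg
Prtn3: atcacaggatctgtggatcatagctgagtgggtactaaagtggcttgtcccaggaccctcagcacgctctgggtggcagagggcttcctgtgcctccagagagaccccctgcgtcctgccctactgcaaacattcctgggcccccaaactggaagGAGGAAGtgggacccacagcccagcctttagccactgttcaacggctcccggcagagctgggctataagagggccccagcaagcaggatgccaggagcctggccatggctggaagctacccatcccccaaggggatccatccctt
Mpo: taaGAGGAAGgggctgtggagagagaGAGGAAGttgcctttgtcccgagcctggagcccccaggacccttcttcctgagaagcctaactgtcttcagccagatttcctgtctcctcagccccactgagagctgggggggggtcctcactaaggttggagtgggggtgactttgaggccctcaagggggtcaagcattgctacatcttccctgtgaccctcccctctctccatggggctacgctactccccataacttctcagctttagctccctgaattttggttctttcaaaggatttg
Ctsg: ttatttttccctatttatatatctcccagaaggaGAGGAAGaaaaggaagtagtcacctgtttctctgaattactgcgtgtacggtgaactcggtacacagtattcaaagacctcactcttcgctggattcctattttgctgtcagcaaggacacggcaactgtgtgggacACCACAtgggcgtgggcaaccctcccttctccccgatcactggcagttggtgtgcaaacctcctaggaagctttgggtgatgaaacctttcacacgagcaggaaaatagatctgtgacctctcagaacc
Ngp: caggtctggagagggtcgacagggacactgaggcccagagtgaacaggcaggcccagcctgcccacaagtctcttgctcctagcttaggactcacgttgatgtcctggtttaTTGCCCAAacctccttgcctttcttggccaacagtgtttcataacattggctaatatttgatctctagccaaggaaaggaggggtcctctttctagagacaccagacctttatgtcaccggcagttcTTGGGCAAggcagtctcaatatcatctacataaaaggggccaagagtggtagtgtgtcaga
Fcnb: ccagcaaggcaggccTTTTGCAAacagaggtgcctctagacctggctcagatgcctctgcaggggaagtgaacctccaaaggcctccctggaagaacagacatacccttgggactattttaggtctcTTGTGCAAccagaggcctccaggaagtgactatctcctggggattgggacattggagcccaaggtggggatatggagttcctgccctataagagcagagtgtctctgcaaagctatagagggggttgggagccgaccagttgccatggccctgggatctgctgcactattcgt
Ltb4r1: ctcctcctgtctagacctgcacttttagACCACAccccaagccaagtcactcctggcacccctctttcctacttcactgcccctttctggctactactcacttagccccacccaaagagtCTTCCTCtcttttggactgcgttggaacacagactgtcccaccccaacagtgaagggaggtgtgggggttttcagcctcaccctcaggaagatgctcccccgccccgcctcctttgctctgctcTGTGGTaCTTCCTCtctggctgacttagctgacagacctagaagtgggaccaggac
Their positions are chr10:79886062-79886361, plus strand for Elane, chr10:79879417-79879716, plus strand for Prtn3, chr11:87793534-87793833, plus strand for Mpo, chr14:56102525-56102824, minus strand for Ctsg, chr9:110419558-110419857, plus strand for Ngp, chr2:28084829-28085128, minus strand for Fcnb and chr14:55765712-55766011, plus strand for Ltb4r1. The neighbours Elane and Prtn3 have their PU.1 match at -85 and -95, counted at the first base of the match with the annotated start as 0, whereas the 2 matches of Mpo lie at -247 and -224 and that of Ctsg at -216. The C/EBP matches lie at -138 and -11 in Ngp and at -235 and -123 in Fcnb. In Ltb4r1 a RUNX match at -6 and a PU.1 match at 1 are separated by 1 base.

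To ask what differed between groups at equal granulocyte signal, the primary granule score was added to the fit as a covariate, which leaves 25 members to be tested. The score is measured on the same arrays, and the fit takes it as free of error. Between AIRmax pristane and AIRmax control footpads, 2 of 25 members then passed (2.37% of all genes): Hp with a difference of 0.65 (standard error 0.13, adjusted p = 0.0406) and Trem1 with 0.91 (standard error 0.19, adjusted p = 0.0467). Between AIRmin pristane and AIRmin control footpads 2 of 25 passed (5.46% of all genes), Hp in the opposite direction with -0.98 (standard error 0.18, adjusted p = 0.0141) and Ltb4r1 with 0.71 (standard error 0.14, adjusted p = 0.0207). Between the pristane groups, 4 of 25 passed (2.96% of all genes), all higher in AIRmax: Hp by 1.18, Csf3r by 0.90, Trem1 by 0.93 and Mcemp1 by 0.62 (adjusted p = 0.0357, 0.0417, 0.0465 and 0.0332). Between the control groups 0 of 25 passed (0.0301% of all genes), and the differences of Hp and Trem1 were 0.01 and -0.15.

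The difference of the responses was itself past the threshold for Hp, at 1.46 (standard error 0.29, adjusted p = 0.0207), and for Trem1, at 1.05 (standard error 0.26, adjusted p = 0.0494), where 2.25% of all genes passed. For Hp it remained past the threshold when any 1 of 14 of the 16 arrays was left out, and was lost without AIRmax pristane array 112 or AIRmin pristane array 117 (limma adjusted p between 0.00497 and 0.0592 over all 16 such fits). For Trem1 it was lost without any 1 of 14 of the 16 arrays, with adjusted p up to 0.132. It was kept without AIRmax control array 108 or AIRmax pristane array 109. Among the calls between 2 groups, each tested without 1 of 8 arrays in turn, that of Hp in AIRmax was kept only without array 109 and that of Trem1 only without 108 or 109. In AIRmin, that of Hp was lost without array 117 or 119, and that of Ltb4r1 without 114, 117 or 119. Between the pristane groups, Hp and Mcemp1 were kept only without array 109, 112 or 119, and Csf3r and Trem1 only without 109 or 119. With a score of 5 specific granule genes in place of the primary granule score, 0 of 25 members passed between the pristane groups, where 288 of all genes did. With that score Hp and Trem1 passed in AIRmax (379 of all genes), and Ltb4r1 alone in AIRmin (567 of all genes), where Hp was lost. In the difference of responses Hp passed and Trem1 did not (143 of all genes). With the adipocyte score added as a second covariate, 0 members passed in comparisons between 2 groups. Nearly all other genes were lost too in AIRmax (1 gene of 19938 called), in AIRmin (0) and between the pristane groups (1). Between the control groups 5 genes were called, against 6 with the primary granule score alone, and 0 members had passed there with that score either. In that fit Hp differed by 0.37 in AIRmax and -0.84 in AIRmin, while its difference of responses was 1.45 (adjusted p = 0.0284), with 432 genes called. The covariate fits that left out an array, exchanged the score or added a second one were chosen after the data had been seen. The adipocyte score, from 11 genes of fat cells, moved with treatment, at -0.65 ± 0.45 in AIRmax pristane, 0.35 ± 0.31 in AIRmax control, -0.22 ± 0.44 in AIRmin pristane and 0.52 ± 0.24 in AIRmin control footpads (SD, n = 4 each), and its part in the values of Hp was not tested beyond that fit. Macrophage and monocyte genes moved in the fit with the primary granule score alone. In the difference of responses 8 of 18 were higher (median 0.95), where 2.25% of all genes passed. In AIRmax pristane against AIRmax control footpads 5 of 18 were higher (2.37% of all genes passed). In AIRmin pristane against AIRmin control footpads 11 of 18 were lower (5.46% of all genes passed). The part of macrophage and monocyte genes in the values of Hp and Trem1 was not tested.

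Other cell types of marrow and footpad were measured by lists of their own. With group means removed, the score of 13 megakaryocyte genes (among them Pf4 and Ppbp, chemokines of platelets) followed the primary granule score with r = 0.944, that of 16 eosinophil and mast cell genes with 0.903, and that of 25 cell cycle genes (Mki67, Top2a, Ccna2 and others) with 0.851. Within the eosinophil and mast cell list the eosinophil granule genes Prg2 (r = 0.967) and Epx (0.966) followed the score. The mast cell protease gene Cpa3 (0.184) did not follow it. Neither did the mast cell protease genes Mcpt4 (-0.304), Cma1 (-0.235), Tpsb2 (-0.323) and Tpsab1 (-0.334), chosen after their values were seen. Mcpt8, also chosen after its value was seen, did follow the score, with the highest r of the list, 0.986. Kit and Ms4a2, chosen in the same way, had 0.793 and 0.702. For 24 erythroid precursor genes (Alas2, Epb42, Car1 and others) r was 0.585, for 19 B cell precursor genes (Vpreb1, Igll1, Vpreb3 and others) 0.494, for 17 bone genes (Ibsp, Col1a1, Sp7 and others) 0.630, for 18 macrophage and monocyte genes (Cd68, Adgre1, Csf1r and others) 0.539 and for 11 adipocyte genes (Adipoq, Plin1, Fabp4 and others) 0.639. Keratinocyte genes (Krt5, Krt14, Krt10 and others, 12 in all) ran the other way, with r = -0.765, and 20 skeletal muscle genes (Acta1, Ckm, Mb and others) had r = -0.332. Array 109, with a primary granule score of 2.29, had an erythroid score of -0.20, whereas array 108, with 2.29, had 1.03, so that erythroid signal did not follow on every granulocyte-rich array. The keratinocyte score of the same 2 arrays was -0.80 and -0.96, and that of array 112 was -1.95. Macrophage and monocyte genes had scores of 0.53 ± 0.201 in AIRmax pristane, 0.05 ± 0.114 in AIRmax control, -0.52 ± 0.265 in AIRmin pristane and -0.06 ± 0.128 in AIRmin control footpads (SD, n = 4 each). By limma without a covariate, 3 of these 18 genes passed in AIRmax pristane against AIRmax control footpads, 0 in AIRmin, 7 between the pristane groups, 0 between the control groups and 4 in the difference of responses, where 0.281%, 0.0%, 1.36%, 0.0802% and 0.171% of all genes did. The part of these cell types in the granulocyte values was not tested.

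**Figure D5:**
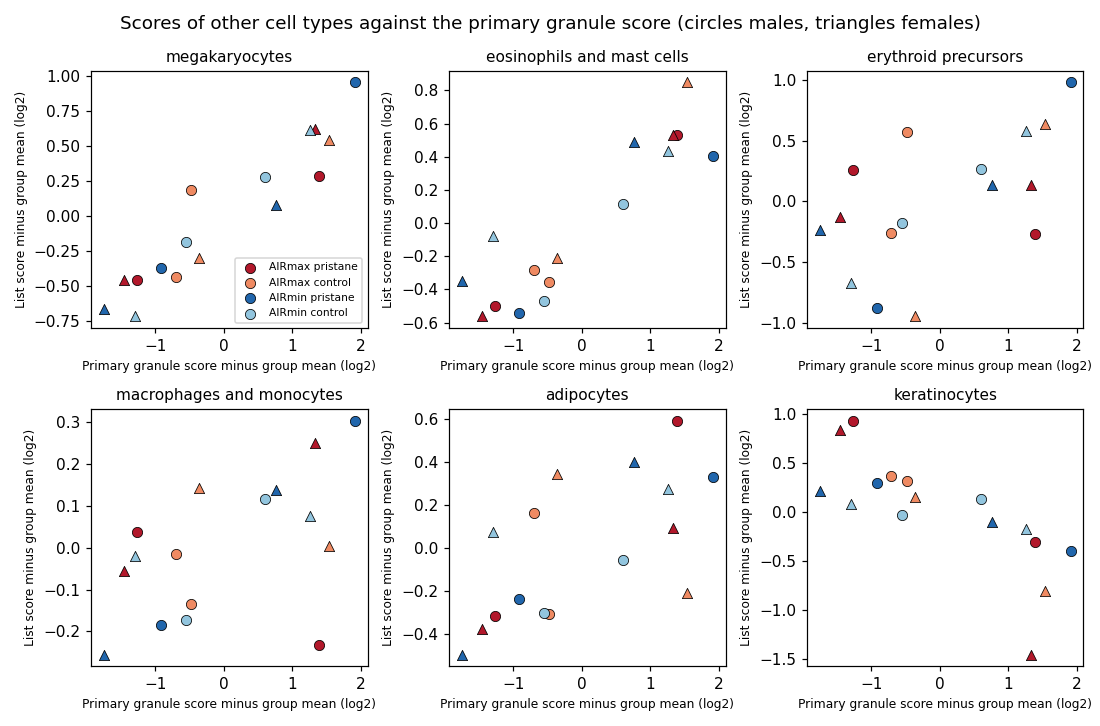
Scores of 6 gene lists (vertical axes, log2, group mean removed) against the primary granule score (horizontal axes, log2, group mean removed), with 1 point per array, coloured by group, circles for males and triangles for females. Megakaryocyte (r = 0.944) and eosinophil and mast cell (r = 0.903) scores rise with it, keratinocyte scores fall (r = -0.765), and erythroid, macrophage and adipocyte scores scatter.

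Further genes of granulocyte biology, 55 with a probe set, included chemokines, cytokines, proteases and regulators. Among them, 4 passed in AIRmax pristane against AIRmax control footpads and 0 in AIRmin, 5 between the pristane groups, 0 between the control groups and 2 in the difference of responses, all of them higher, against 0.281%, 0.0%, 1.36%, 0.0802% and 0.171% of all genes. Cxcl5, a chemokine that draws neutrophils through Cxcr2, was at 7.40, 7.50, 6.19 and 8.63 in AIRmax pristane, 4.56, 4.33, 4.58 and 5.17 in AIRmax control, 3.82, 4.15, 4.05 and 4.26 in AIRmin pristane and 4.38, 4.32, 4.13 and 4.29 in AIRmin control footpads. AIRmax pristane arrays lay above all others for this gene. Among them were arrays 110 and 111, which had the lowest primary granule scores of the AIRmax arrays. In mature neutrophil score array 111 (-0.261) was the lowest AIRmax array, but array 110 (0.225) was above AIRmax control arrays 106 (0.034) and 107 (0.097). Cxcl5 differed by 2.78 in AIRmax pristane against AIRmax control footpads (standard error 0.44, adjusted p = 0.0492), by 3.36 between the pristane groups (adjusted p = 0.0139) and by 2.98 in the difference of responses (adjusted p = 0.0210). The value of Cxcl5 in AIRmax was chosen after it was seen, the others by rank of p. Cxcl2, another ligand of Cxcr2, differed by 1.87 in AIRmax (adjusted p = 0.0190), Cxcl3 by 0.69 (adjusted p = 0.0395) and Acod1, which makes itaconate in activated myeloid cells, by 2.88 (adjusted p = 0.0319). Ctsc, the protease that activates the primary granule proteases, differed by 1.21 between the pristane groups (adjusted p = 0.0113) and by 1.20 in the difference of responses (adjusted p = 0.0108). Ly6g, a surface marker of mouse neutrophils, followed the primary granule score (r = 0.961) and averaged 9.31 ± 1.48, 8.90 ± 1.01, 8.36 ± 2.19 and 8.02 ± 1.49 in AIRmax pristane, AIRmax control, AIRmin pristane and AIRmin control footpads (SD, n = 4 each).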

How the data were processed

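Total RNA of 16 footpads, 1 array per mouse sample, was hybridized to Affymetrix Mouse Gene 1.0 ST arrays. The authors deposited log2 signals per probe set, with titles naming an RMA gene-level default. The submitters' processing notes name MAS5 without a version, which the log2 range of the table does not settle. The values were used as deposited.

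Of 35556 probe sets, 21789 named 1 gene in the platform annotation, 1621 several and 12146 none, and 21698 of those naming 1 gene matched RefSeq by Entrez ID. A gene was represented by its probe set with the highest mean, giving 19938 genes (999 had more than 1 probe set). No 2 arrays held identical values. Groups were compared with limma 3.58.1 in R 4.3.3 (lmFit and eBayes with a constant prior, on the 8 arrays of a comparison, or on 16 for the difference of responses), with Benjamini-Hochberg adjustment over all 19938 genes and a threshold of 0.05. The fit was tested on simulated data. Scores, correlations and motif searches used numpy 2.4.6, scipy 1.17.1 and pandas 2.3.3 under Python 3.11.15, and figures matplotlib 3.10.9. The alternatives were all 16 arrays in 1 fit, sex or the primary granule score as a covariate, a filter on dim genes, quantile or standardized normalization, averaging all probe sets that name a gene, a trended robust prior and leaving out each array. The study's SAM test was not run, since its permutations regroup the arrays.

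Members, classes and lists were chosen with earlier results of these data known. All members with a probe set are named. Of the other lists, genes past the threshold (at most 3 per comparison, by p) and the first 3 genes of each list are named, and others were chosen after their values were seen. The study's methods call the samples biological replicates. Positions and promoter windows are those of RefSeq for GRCm38.p6.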

Additional observations from a re-analysis of the deposited data

Results flagged for a closer look

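In 120 sets of 4 arrays (30 genes in 4 groups), 20 had 1 array whose gap to the nearest other exceeded Dixon's critical share of the range, where chance flags about 1 in 20 groups. All 20 were AIRmax control array 108, and since the genes move together they are not separate events. On that array the log2 signal was 11.69 for Elane, 11.7 for Mpo, 10.89 for Ctsg and 10.14 for Ms4a3. It was 12.71 for Lcn2, 9.51 for Fcnb, 10.7 for Mmp8, 7.73 for Itgb2l, 11.32 for Cd177 and 11.16 for Hp. The transcription factor genes Cebpe and Gfi1 were at 8.36 and 7.62. Mature neutrophil genes were at 12.19 for S100a9, 8.9 for Mmp25, 8.29 for Padi4, 7.88 for Trem1, 9.49 for Trem3, 9.87 for Mcemp1, 9.57 for Clec5a and 8.19 for Ltb4r1. The AIRmax pristane group had no such array, since 2 of its 4 arrays were high.

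The response to pristane, at equal primary granule score, was tested to differ between the lines for Hp (1.46, limma adjusted p = 0.0207) and Trem1 (1.05, limma adjusted p = 0.0494). The call of Hp was kept in 14 of 16 fits that each left out 1 array, and that of Trem1 in 2 of 16. With a score of 5 specific granule genes as covariate instead, Hp passed and Trem1 did not. Without a covariate the limma adjusted p was 0.898 for Hp and 0.968 for Trem1.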

How the results depend on the processing

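No paired analysis was possible because each array number occurs in 1 group only. In 82 fits without a granulocyte score as covariate (other normalization, probe set, prior, filter, sex or pooled groups, and leaving out each array), 0 had a member past the threshold. The smallest adjusted p of a member over these limma fits was 0.220 for AIRmax pristane against control, 0.0596 for AIRmin pristane against control, 0.0590 between the pristane groups, 0.0664 between the control groups and 0.628 for the difference of responses. With the primary granule score as a covariate the counts of members called were 2, 2, 4, 0 and 2 of 25 in the same order, against 0 without it. With a score of 5 specific granule genes in its place they were 2, 1, 0, 0 and 1 (379, 567, 288, 5 and 143 of all genes), and with the adipocyte score added 0, 0, 0, 0 and 2 (1, 0, 1, 5 and 432 of all genes). Leaving out each array in turn, with the primary granule score as covariate, gave 0 to 2, 0 to 3, 0 to 4, 0 and 0 to 2. In the same fits 70 to 847, 224 to 940, 69 to 771, 4 to 10 and 132 to 705 of all 19938 genes were called. The median difference over members was -0.11 to 0.74, 0.22 to 1.20, 0.76 to 1.83, 1.28 to 2.10 and -0.96 to 0.05 when each array was left out, in the same order. Genes without overlap between AIRmax control and AIRmin control footpads numbered 19 to 29 of 30 when an array was left out, with 29 (9.36% of all genes) without AIRmin control array 116, and were 18 after quantile normalization (4.7% of all genes) and 16 with standardized arrays (5.11%). These overlap counts under other settings and the added covariate fits were chosen after the data had been seen. Of 2570 differences of single members under alternatives, 195 that were never past the threshold changed sign. The r of the primary and mature scores, group means removed, stayed between 0.990 and 0.995 when each array was left out. With 4 arrays per group and within-group SDs with a median of 1.17 over members, a log2 difference as large as 2.27 (Elane between the control groups) did not pass.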

Other observations

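Acod1 and Il1b, from the list of further granulocyte genes, chosen after their values were seen, were higher in AIRmax than in AIRmin pristane footpads, by 2.13 and 2.18 on the log2 scale (limma, adjusted p = 0.0436 and 0.0431). Tpsab1, a mast cell tryptase gene, was the 1 gene of 16 on the eosinophil and mast cell list past the threshold between the lines, at -2.37 in AIRmax pristane against AIRmin pristane footpads (adjusted p = 0.0023) and -2.79 in AIRmax control against AIRmin control footpads (limma, adjusted p = 0.00476). Of the 16 genes, 11 were above 0 between the control groups, with a median of 0.39, and 9 between the pristane groups, with a median of 0.13.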
